A study of Homo sapiens with 12 samples.

Results

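AXL, CYR61, F3 and AREG are 4 genes linked to growth signalling through the transcriptional co-activator YAP and the epidermal growth factor receptor EGFR. They were chosen by their gene symbols, and all 4 were found among the 3699 genes of the table, each marked as mRNA, with gene IDs 558, 3491, 2152 and 374. RNA was sequenced from SW480, an established human colorectal adenocarcinoma cell line, in 12 libraries of 3 per group. The cell line label reads SW480 for every library, but the free-text descriptions give each library a different number, counting upward from SW480. Cells had been grown for 12 h in medium with 10% serum. One group then received GLY together with PUE (GLY_PUE) for 12 h, one GLY, one PUE for 12 h, and one was left untreated. The labels do not spell out GLY or PUE and give no dose. The GLY libraries numbered 1, 2 and 3 are labelled 12, 13 and 14 h, while the protocol states 12 h for every group. The design asks what each agent does alone and whether the combination differs from either. Whether the replicates were separate cultures is not given in the labels, so p-values reflect only the variation among these 12 libraries, which may be technical.

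AREG (amphiregulin) is a ligand of EGFR that is made as a membrane-bound precursor and released by a sheddase. CYR61, now also named CCN1, encodes a secreted matrix-associated protein that binds integrins. AXL is a receptor tyrosine kinase activated by GAS6, and F3 encodes tissue factor, the cell-surface receptor that starts blood coagulation and is present on many carcinoma cells. YAP and its relative TAZ act in the nucleus by binding TEAD factors, and the kinases of the Hippo pathway keep them in the cytoplasm. CYR61, AXL, F3 and AREG have each been described as targets of YAP or TAZ in some cell types, and CYR61 is among the most widely used readouts.

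The recovered library totals ranged from 19.7 to 21.4 M reads. The deposited genes held between 13.8% and 15.4% of them. The table is a selected list: every gene in it passed the authors' thresholds in at least 1 of their comparisons, so a high share of called genes is built into it. On the first principal component, with 79.0% of the variance of log2 CPM (counts scaled to a library total of 1000000 reads), the 6 GLY_PUE and GLY libraries stood apart from the 6 PUE and untreated libraries. On the second component, with 10.2% of the variance, GLY replicate 1 stood apart, and the libraries numbered 3 stood apart on the third component (6.18%). Within groups the libraries numbered 1 and 2 differed by a chi-square per gene of 4.74 in GLY_PUE, 2.10 in PUE and 2.61 in untreated, but by 165 in GLY. PUE replicate 3 and untreated replicate 3, which belong to different groups, differed by 3.07. Results are therefore also given without the libraries numbered 3. GLY replicate 1 stays in that fit, where it is a larger part of the GLY group. Each library was also left out in turn, and calls lost in this way are named. For the pathway genes, calls gained in this way are not listed. Leaving out GLY replicate 1 alone lost no call in GLY for AXL, CYR61, F3 or AREG.

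The 250 bases before the RefSeq start of a gene (build GRCh38.p14) could be read for 3 of the 4 genes: AREG, AXL and F3. They are shown because the 4 genes are grouped by the factors said to act on them, and they let short motifs for those factors be compared between the genes. Capitals mark matches, on either strand, to the TEAD motif GGAATG, the AP-1 motif TGANTCA or the cyclic AMP response element TGACGTCA. No matches overlapped. Among 35116 promoter windows of the same length, 11.9% held the TEAD motif, 6.57% the AP-1 motif and 1.65% the cyclic AMP response element. The AREG window (chr4:74444886-74445135, plus strand) held a cyclic AMP response element whose first base lies 65 bases before the start.
AREG: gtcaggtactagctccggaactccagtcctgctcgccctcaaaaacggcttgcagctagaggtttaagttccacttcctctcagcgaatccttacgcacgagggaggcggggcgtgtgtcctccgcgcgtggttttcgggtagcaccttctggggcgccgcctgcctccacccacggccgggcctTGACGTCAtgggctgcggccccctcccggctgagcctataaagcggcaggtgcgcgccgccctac
AXL has 2 starts in the table. The window of the first (chr19:41218973-41219222, plus strand) held none of the motifs. That of the second (chr19:41226505-41226754, plus strand) held the TEAD motif in reverse, 212 bases before the start.
AXL, start 2: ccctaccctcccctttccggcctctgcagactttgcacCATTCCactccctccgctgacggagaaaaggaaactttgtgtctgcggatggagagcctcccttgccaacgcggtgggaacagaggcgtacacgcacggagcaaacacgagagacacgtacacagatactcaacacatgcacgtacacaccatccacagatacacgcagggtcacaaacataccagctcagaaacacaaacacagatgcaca
The F3 window (chr1:94541760-94542009, minus strand) held 2 AP-1 motifs, 223 and 210 bases before the start.
F3: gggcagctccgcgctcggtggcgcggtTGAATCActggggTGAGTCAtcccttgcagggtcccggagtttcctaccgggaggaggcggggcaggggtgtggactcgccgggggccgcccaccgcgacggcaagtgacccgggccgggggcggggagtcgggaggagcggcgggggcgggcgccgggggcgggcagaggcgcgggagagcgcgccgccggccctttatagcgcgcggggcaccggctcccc
A match describes the letters in this window and does not show that a factor binds there.

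AREG, the EGFR ligand, had the largest fold changes of the 4 genes. It had 35.2, 31.9 and 32.3 CPM in the 3 GLY_PUE libraries, 21.4, 34.5 and 39.1 CPM in the GLY libraries, 4.43, 3.89 and 1.02 CPM in the PUE libraries and 4.10, 4.98 and 1.18 CPM in the untreated libraries. Every library that received GLY lay above every library that did not. The lowest read counts behind these values were 20 in PUE replicate 3 and 24 in untreated replicate 3, against 453 in GLY replicate 1. AREG rose 9.68-fold in GLY_PUE relative to untreated (log2 fold change 3.28, SE 0.55, adjusted p = 0.000441 by edgeR's quasi-likelihood test) and 9.25-fold in GLY relative to untreated (log2 3.21, SE 0.55, adjusted p = 0.00046). Without the libraries numbered 3 the log2 fold changes were 2.89 in GLY_PUE and 2.62 in GLY, and both calls held. A second, near-identical AREG gene (AREGB) is now listed as a synonym of AREG. Whether the authors' annotation counted them apart is not given in the sources used here, so the level of AREG is uncertain.

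CYR61, the matrix protein, had 127, 128 and 59.99 CPM in GLY_PUE, 81.6, 124 and 52.1 CPM in GLY, 36.8, 37.8 and 12.9 CPM in PUE and 38.8, 39.4 and 12.8 CPM in untreated libraries. The groups with GLY did not overlap those without it, but in each group the library numbered 3 was the lowest. CYR61 rose 3.46-fold in GLY_PUE (log2 1.79, SE 0.52, adjusted p = 0.009) and 2.83-fold in GLY (log2 1.5, SE 0.52, adjusted p = 0.0182), both relative to untreated. The call in GLY was lost without GLY replicate 2 (log2 1.14, adjusted p = 0.0766) and without untreated replicate 3 (log2 1.14, adjusted p = 0.0621). It held without all libraries numbered 3 (log2 1.40, adjusted p = 0.00366).

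AXL, the receptor tyrosine kinase, had 583, 661 and 551 CPM in GLY_PUE, 410, 626 and 507 CPM in GLY, 172, 175 and 78.4 CPM in PUE and 187, 192 and 68.8 CPM in untreated libraries. The groups with GLY lay clear of the others, with the lowest GLY library at 410 CPM and the highest untreated library at 192 CPM. AXL rose 4.01-fold in GLY_PUE (log2 2.00, SE 0.40, adjusted p = 0.00112) and 3.45-fold in GLY (log2 1.79, SE 0.39, adjusted p = 0.00187), both relative to untreated. Without the libraries numbered 3 the log2 fold changes were 1.72 and 1.45 in GLY_PUE and GLY, and both calls held.

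F3, tissue factor, had the smallest fold changes of the 4 genes. It had 19.7, 18.2 and 13.3 CPM in GLY_PUE, 7.44, 19.5 and 14.3 CPM in GLY, 7.74, 9.10 and 6.71 CPM in PUE and 6.99, 8.63 and 7.43 CPM in untreated libraries. GLY_PUE lay above untreated in all libraries, while GLY replicate 1 fell inside the untreated range. F3 rose 2.22-fold in GLY_PUE (log2 1.15, SE 0.32, adjusted p = 0.0075) and 1.79-fold in GLY (log2 0.84, SE 0.32, adjusted p = 0.0282), both relative to untreated. The call in GLY was not stable. It was lost without the libraries numbered 3 (log2 0.79, adjusted p = 0.128) and without GLY replicate 2 (log2 0.50, adjusted p = 0.157), GLY replicate 3 (0.81, adjusted p = 0.0565), untreated replicate 1 (0.78, adjusted p = 0.0776) or untreated replicate 3 (0.82, adjusted p = 0.0679). The call in GLY_PUE held without the libraries numbered 3 (log2 1.28, adjusted p = 0.0362). In the authors' deposited table the log2 ratio of F3 in GLY to untreated was 0.84 and fell short of their threshold of 1, while their ratios for AXL, CYR61 and AREG passed it.

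**Figure D1:**
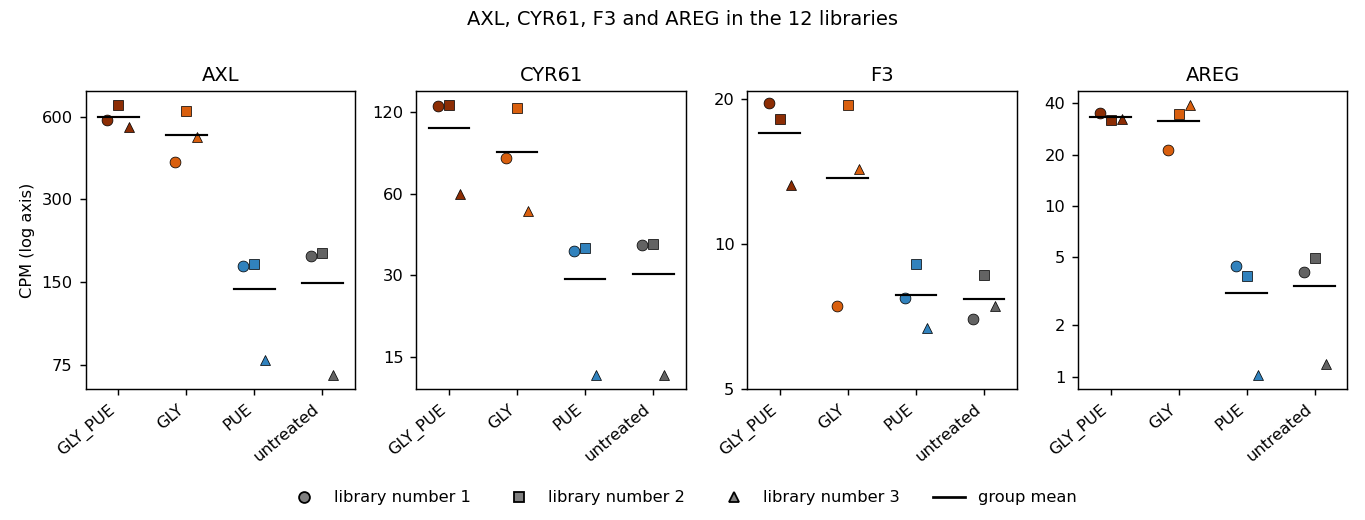
CPM (log axis) of AXL, CYR61, F3 and AREG in each of the 12 libraries by group, with marker shape for the library number and a line for the group mean of 3 libraries. AXL, CYR61 and AREG lie higher in every GLY_PUE and GLY library than in any PUE or untreated library, while GLY replicate 1 of F3, at 7.44 CPM, lies among the untreated values.

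All 4 genes were called higher in GLY relative to untreated, where 19.7% of the 3429 genes tested were called higher and 64.6% lower. All 4 were also called higher in GLY_PUE relative to untreated, where 20.2% of genes were called higher and 57.1% lower. The genes were named with results of these data known, so these counts are a description. The groups did not overlap for 3 of the 4 genes in GLY against untreated (background 17.7% higher) and for all 4 in GLY_PUE against untreated (background 21.9% higher). The median log2 fold change over all genes tested was -1.15 in GLY and -1.03 in GLY_PUE. AREG ranked 49, AXL 220, CYR61 314 and F3 732 of 3429 by log2 fold change in GLY, counted from the highest. In GLY_PUE they ranked 47, 161, 211 and 531. Both comparisons use the same untreated libraries. TMM scaling within the table sets the median gene near no change and shifts log2 values by 1.13 in GLY and 1.01 in GLY_PUE. Under it, AXL, CYR61, F3 and AREG had log2 fold changes of 2.96, 2.76, 2.17 and 4.23 in GLY_PUE and of 2.86, 2.61, 1.93 and 4.26 in GLY. The share of called genes that were lower was then 32.5% in GLY_PUE and 29.9% in GLY, against 73.8% and 76.7% with library totals. In these bulk libraries, more cells that express a gene and more RNA of it per cell cannot be told apart.

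**Figure D2:**
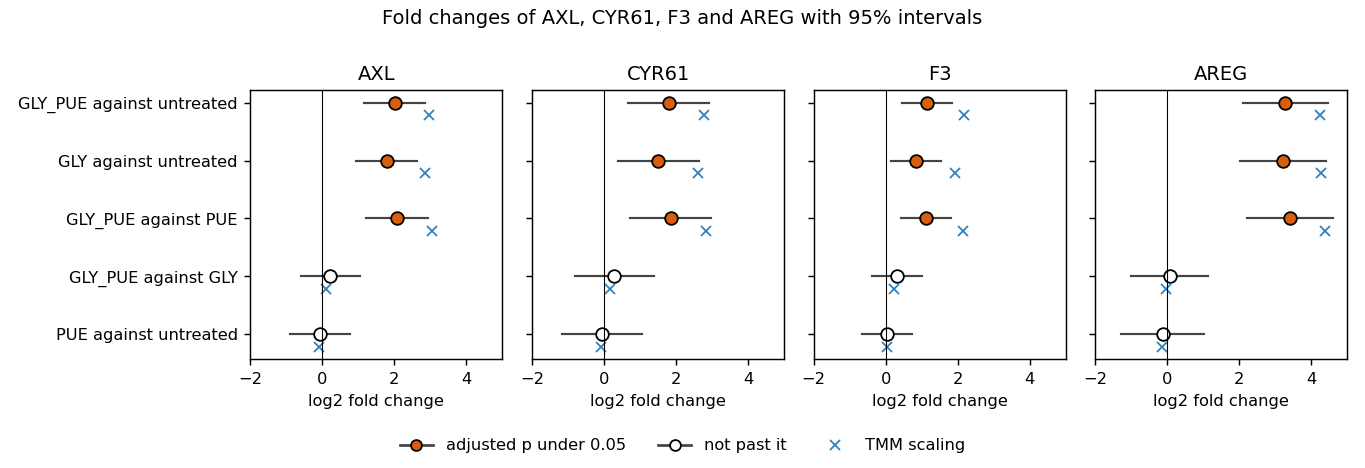
Log2 fold change with its 95% interval for AXL, CYR61, F3 and AREG in each comparison (edgeR, 3 libraries per group), with a cross for the value under TMM scaling. The intervals lie above 0 for all 4 genes in GLY_PUE and GLY relative to untreated, reaching from 0.15 to 1.54 for F3 in GLY, and include 0 for PUE relative to untreated and for GLY_PUE relative to GLY.

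Within each library number the size of the difference varied. AREG was 8.59, 6.42 and 27.3 times as high in GLY_PUE as in untreated for numbers 1, 2 and 3, and 5.22, 6.94 and 33.0 times as high in GLY as in untreated. AXL was 3.12, 3.44 and 8.0 times as high in GLY_PUE and 2.20, 3.26 and 7.37 times in GLY. For both genes number 3 gave the highest ratio. This went with low values where no GLY was given: number 3 of AREG was at 24.5% of the mean of numbers 1 and 2 in PUE and 26.1% in untreated, against 96.3% in GLY_PUE and 140% in GLY. Number 3 of AXL was at 45.1% in PUE and 36.4% in untreated, against 88.6% in GLY_PUE and 97.9% in GLY.

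For CYR61 number 3 was low in all groups, at 47.1% of the mean of numbers 1 and 2 in GLY_PUE, 50.7% in GLY, 34.6% in PUE and 32.8% in untreated. Its ratios were 3.27, 3.25 and 4.68 in GLY_PUE against untreated and 2.10, 3.15 and 4.07 in GLY against untreated. F3 had ratios of 2.82, 2.11 and 1.79 in GLY_PUE against untreated and 1.06, 2.26 and 1.93 in GLY against untreated, so that number 1 gave almost no difference in GLY. The part of the library number in these results was not tested beyond the values given.

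**Figure D3:**
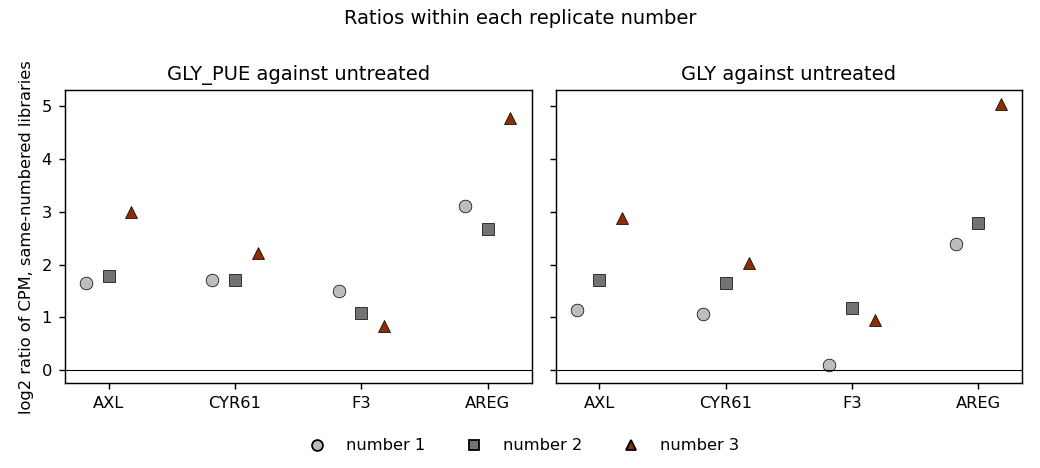
Log2 ratio of CPM between libraries of the same number, for GLY_PUE and GLY against untreated, in AXL, CYR61, F3 and AREG. Number 3 gives the highest ratio for AXL and AREG, a ratio of 33.0 for AREG in GLY, and number 1 of F3 in GLY lies close to no difference, at a ratio of 1.06.

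PUE alone gave no called difference in any of the 4 genes. Relative to untreated, the log2 fold changes were -0.07 for AXL (95% interval -0.90 to 0.75), -0.06 for CYR61 (-1.16 to 1.05), 0.03 for F3 (-0.66 to 0.73) and -0.14 for AREG (-1.28 to 1.01), each with an adjusted p of 1. The PUE and untreated libraries overlapped for all 4 genes, and the groups were apart for 1.52% of genes tested with PUE higher and 1.66% with PUE lower. edgeR called 0 of 3429 genes (percentage called 0), with 12 at an unadjusted p under 0.05. DESeq2 and limma-voom also called 0, with 4 and 14 genes at that level. The intervals of CYR61 and AREG include changes of 1 on the log2 scale in both directions. They come from the fit without the library number as a block. Within numbers 1, 2 and 3, PUE was 0.923, 0.913 and 1.14 times untreated for AXL and 0.949, 0.961 and 1.01 times for CYR61. The ratios were 1.11, 1.06 and 0.903 for F3 and 1.08, 0.781 and 0.859 for AREG.

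Adding PUE to GLY gave no called difference either. GLY_PUE exceeded GLY by a log2 fold change of 0.22 for AXL (95% interval -0.61 to 1.04, adjusted p = 0.959), 0.29 for CYR61 (-0.81 to 1.38, adjusted p = 0.959), 0.31 for F3 (-0.38 to 1.00, adjusted p = 0.959) and 0.07 for AREG (-1.0 to 1.14, adjusted p = 0.993). The groups overlapped for all 4, and were apart for 3.3% of genes tested with GLY_PUE higher and 1.57% with GLY_PUE lower. Within numbers 1, 2 and 3, GLY_PUE was 1.42, 1.06 and 1.09 times GLY for AXL, 1.56, 1.03 and 1.15 times for CYR61, 2.65, 0.934 and 0.926 times for F3 and 1.65, 0.924 and 0.828 times for AREG. The ratio was highest for number 1 in all 4 genes. GLY replicate 1 was the lowest GLY library for AXL, F3 and AREG, but for CYR61 that was GLY replicate 3. edgeR called 0 of 3429 genes (percentage called 0), with 57 genes under 0.05 before adjustment. The counts before adjustment were 49 by DESeq2 and 59 by limma-voom, which also called 0. In the authors' deposited table the q-values of this comparison were 6.82e-86 for AXL, 6.25e-27 for CYR61, 7.89e-06 for F3 and 0.245 for AREG, and none of the 4 log2 ratios reached 1. The test behind these q-values is not given in the sources used here. They may not measure the spread among libraries and cannot be set against the adjusted p-values above.

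The interaction, which asks whether the difference made by GLY depended on PUE, was 0.29 for AXL (SE 0.54), 0.34 for CYR61 (SE 0.72), 0.27 for F3 (SE 0.45) and 0.20 for AREG (SE 0.72) on the log2 scale, each with an adjusted p of 0.999. edgeR called 0 of 3429 genes for it (percentage called 0), with 33 at an unadjusted p under 0.05; DESeq2 and limma-voom each called 0 as well, with 22 and 35 at that level. Set against PUE, GLY_PUE gave log2 fold changes of 2.07 for AXL (adjusted p = 0.000925), 1.85 for CYR61 (adjusted p = 0.00774), 1.12 for F3 (adjusted p = 0.00852) and 3.41 for AREG (adjusted p = 0.000362). All 4 were called higher, where 20.6% of genes were called higher. This comparison uses no untreated library, but it shares the GLY_PUE libraries with those above.

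Compared per length, as FPKM (fragments scaled to transcript length and library total), AXL had the highest level of the 4 in all 12 libraries. Its mean was 130 ± 12.4 FPKM in GLY_PUE, 114 ± 20.7 in GLY, 31.3 ± 12.1 in PUE and 32.7 ± 15.4 in untreated (SD, n = 3). CYR61 was second in 11 libraries, with 46.5 ± 17.2, 38.1 ± 16.0, 12.9 ± 6.25 and 13.4 ± 6.72 FPKM in the same order of groups. AREG had 26.8 ± 1.45, 25.6 ± 7.42, 2.51 ± 1.48 and 2.76 ± 1.61 FPKM, and F3 had 7.30 ± 1.37, 5.87 ± 2.60, 3.38 ± 0.490 and 3.31 ± 0.359 FPKM. F3 was the lowest in every library with GLY, whereas in PUE and untreated libraries the levels of F3 and AREG overlapped and changed places. By mean FPKM among all 3699 genes, AREG ranked 317 in GLY_PUE and 321 in GLY, against 1743 in untreated.

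The genes around these 4 were described from lists of pathway members. With AXL, CYR61, F3 and AREG counted among them, 47 such genes were in the table and tested. These 4 were called higher in both comparisons below, so they add to the counts of rising genes and to the medians. In GLY_PUE relative to untreated 24 rose, 14 fell and 9 were not called, with a median log2 fold change of 1.06, where 20.2% of all genes tested were called higher and 57.1% lower. In GLY relative to untreated 20 rose, 19 fell and 8 were not called, with a median of 0.78, where 19.7% of all genes were called higher and 64.6% lower. Under TMM scaling 25 rose and 3 fell in each of these comparisons. In PUE relative to untreated and in GLY_PUE relative to GLY 0 of the 47 were called. The lists were written with earlier results of these data known, and genes outside the table were not analysed here.

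All 3 EGFR ligands in the table, of 11 on the list and with AREG among them, rose in both comparisons. The share of all genes tested that rose was 20.2% in GLY_PUE and 19.7% in GLY. HBEGF, a heparin-binding ligand of EGFR, had 75.8, 68.8 and 69.0 CPM in GLY_PUE, 69.3, 73.4 and 72.4 CPM in GLY, 10.4, 11.4 and 4.57 CPM in PUE and 11.2, 11.05 and 4.93 CPM in untreated libraries. It was evenly high in all libraries with GLY, GLY replicate 1 included, and rose 7.86-fold in GLY_PUE (log2 2.98, adjusted p = 9.72e-05) and 7.92-fold in GLY (log2 2.99, adjusted p = 8.4e-05). EREG (epiregulin), another EGFR ligand, had 50.2, 48.6 and 31.4 CPM in GLY_PUE, 9.06, 50.5 and 36.6 CPM in GLY, 8.71, 10.2 and 1.98 CPM in PUE and 9.28, 10.7 and 2.42 CPM in untreated libraries. GLY replicate 1 lay inside the untreated range. EREG rose in GLY_PUE (log2 2.54, SE 0.70, adjusted p = 0.00692) and GLY (log2 2.10, SE 0.69, adjusted p = 0.0147). The call in GLY was lost without GLY replicate 2 (log2 1.62, adjusted p = 0.061) and without the libraries numbered 3 (log2 1.58, adjusted p = 0.0736).

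The table held 5 receptors and factors of ligand release, of 8 on the list. Of these, 3 rose and 1 fell in GLY_PUE (20.2% and 57.1% of all genes tested). In GLY 1 rose and 2 fell (19.7% and 64.6% of all genes tested). EGFR, the receptor of AREG, had 282, 327 and 239 CPM in GLY_PUE, 64.4, 314 and 236 CPM in GLY, 117, 109 and 64.2 CPM in PUE and 117, 118 and 69.9 CPM in untreated libraries. It rose 2.78-fold in GLY_PUE (log2 1.47, SE 0.46, adjusted p = 0.0125), a call lost without the libraries numbered 3 (log2 1.37, adjusted p = 0.0911). In GLY it did not pass the test (log2 1.01, adjusted p = 0.0531), with GLY replicate 1 below all 3 untreated libraries, and it was called higher under TMM (log2 2.03, adjusted p = 0.00386). ADAM17, the main sheddase of AREG, rose in GLY_PUE (log2 1.06, adjusted p = 0.0224) and was 0.78 on the log2 scale in GLY (adjusted p = 0.066), where it was called higher under TMM (log2 1.82, adjusted p = 0.000939). The call of ADAM17 was lost without GLY_PUE replicate 3, without untreated replicate 3 or without all libraries numbered 3. RHBDF1, a partner needed for ADAM17 maturation, rose in GLY_PUE (log2 1.48) and GLY (log2 1.37). ERBB3, a receptor that pairs with other members of the EGFR family, fell in GLY_PUE (log2 -1.70) and GLY (log2 -2.02), and its call in GLY_PUE was lost under TMM (log2 -0.69, adjusted p = 0.114). ADAM10, another sheddase, fell in GLY with library totals (log2 -0.95, adjusted p = 0.0412), where its call was lost on leaving out any 1 of 7 libraries or all libraries numbered 3, and its sign turned under TMM.

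Of 10 YAP and TAZ targets in the table, of 22 on the list and with AXL, CYR61 and F3 among them, 7 rose and 2 fell in GLY_PUE (median log2 fold change 1.33), and 6 rose and 2 fell in GLY (median 0.94). Of all genes tested 20.2% rose and 57.1% fell in GLY_PUE, and 19.7% rose and 64.6% fell in GLY. GADD45A, a stress-response gene that slows the cell cycle, rose 5.47-fold in GLY_PUE (log2 2.45, adjusted p = 3.77e-05) and 4.80-fold in GLY (log2 2.26, adjusted p = 5.28e-05). NT5E, an enzyme that makes adenosine at the cell surface, rose in both (log2 1.54 in each). DOCK5, an activator of Rac, rose in GLY_PUE (log2 1.51) and GLY (log2 1.03), and MYOF, a membrane repair protein, rose in GLY_PUE (log2 1.14, adjusted p = 0.0145). The calls of DOCK5 in GLY and of MYOF in GLY_PUE were lost without the libraries numbered 3, and that of MYOF also without untreated replicate 3. Under TMM MYOF was called higher in GLY as well (log2 1.88, adjusted p = 0.00245). IGFBP3, a secreted binder of insulin-like growth factors, fell 7.64-fold in GLY_PUE and 8.09-fold in GLY (log2 -2.93 and -3.02), with 10.8, 13.4 and 8.33 CPM in GLY_PUE and 8.46, 13.7 and 8.54 CPM in GLY, against 85.3, 85.5 and 77.7 CPM in untreated libraries. FOXF2, a transcription factor, also fell (log2 -1.15 in GLY_PUE and -1.22 in GLY), and its calls were lost under TMM (-0.13 and -0.08). TGFB2, a growth factor, was not called (log2 -0.98 in GLY_PUE and -1.01 in GLY), was called lower in GLY_PUE with the library number as a replicate block in the fit (log2 -1.03, adjusted p = 0.0458) and turned sign under TMM.

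Of 4 Hippo pathway components in the table, of 24 on the list, 3 fell in GLY_PUE and 3 in GLY with library totals, and 0 under TMM. With library totals 57.1% of all genes tested were called lower in GLY_PUE and 64.6% in GLY, so these counts are near the share over all genes. YAP1 itself had 148, 157 and 142 CPM in GLY_PUE, 58.1, 156 and 159 CPM in GLY, 253, 259 and 250 CPM in PUE and 247, 245 and 267 CPM in untreated libraries. It fell relative to library totals in GLY_PUE (log2 -0.76, adjusted p = 0.0371) and GLY (log2 -1.03, adjusted p = 0.00931), and its sign turned under TMM (0.25 and 0.05). The call in GLY_PUE was lost on leaving out any 1 of the 6 GLY_PUE or untreated libraries (log2 -0.72 to -0.80) or all libraries numbered 3 (log2 -0.69, adjusted p = 0.169). TEAD2, a DNA-binding partner of YAP, and AMOT, which holds YAP outside the nucleus, fell in GLY_PUE (log2 -1.72 and -1.56) and GLY (log2 -1.48 and -1.89).

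Of 13 EGFR and ERK feedback genes in the table, of 22 on the list, 5 rose and 4 fell in GLY_PUE (20.2% and 57.1% of all genes tested), and 5 rose and 7 fell in GLY (19.7% and 64.6% of all genes tested). DUSP5, a nuclear phosphatase of ERK, rose 4.94-fold in GLY_PUE and 5.0-fold in GLY (log2 2.30 and 2.32). ERRFI1, an inhibitor of EGFR, rose in GLY_PUE (log2 1.54) and GLY (log2 1.29), where its call was lost without GLY replicate 3 and without all libraries numbered 3. FOSL1, EGR1 and PHLDA1, which are induced by ERK signalling, rose in both comparisons, with log2 fold changes of 1.72, 1.16 and 1.0 in GLY_PUE and 1.91, 0.78 and 0.84 in GLY. The call of EGR1 in GLY was lost on leaving out any 1 of 4 libraries. Without all libraries numbered 3 EGR1 (log2 0.37, adjusted p = 0.254) and PHLDA1 (log2 0.66, adjusted p = 0.0776) were not called in GLY. ETV1, a transcription factor downstream of ERK, fell in GLY_PUE (log2 -3.96) and GLY (log2 -3.88), and ETV4, its relative, had -1.14 and -0.89. DUSP6, the cytoplasmic phosphatase of ERK, fell in GLY_PUE (log2 -0.89) and GLY (log2 -1.16), and its sign turned under TMM in GLY_PUE, where its call was also lost without the libraries numbered 3 (log2 -0.94, adjusted p = 0.0571). Under TMM 1 of the 13, ETV1, was called lower in each comparison. LRIG3, a relative of the EGFR inhibitor LRIG1, fell in GLY_PUE (log2 -1.18, adjusted p = 0.0496), a call lost on leaving out any 1 of 9 libraries, without all libraries numbered 3 and under TMM (log2 -0.14). The inhibitors SPRY1, SPRY2, SPRED1 and SPRED2 fell in GLY with library totals (log2 -1.0 to -1.19) and did not pass the test in GLY_PUE (log2 -0.68 to -0.93); SPRY1 and SPRY2 turned sign under TMM in GLY. The call of SPRY1 was lost without GLY replicate 1 or untreated replicate 3, and that of SPRY2 without either of these or GLY replicate 2. Without all libraries numbered 3 SPRY1, SPRY2 and SPRED1 were not called in GLY (adjusted p = 0.133, 0.0538 and 0.0906). With the replicate block SPRY2 (log2 -0.89, adjusted p = 0.0179) and SPRED2 (log2 -0.74, adjusted p = 0.0445) were called lower in GLY_PUE.

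Beside AXL, the table held 2 genes of its family of receptors and ligands. MERTK, a related receptor, fell in GLY (log2 -1.01, adjusted p = 0.0274) and turned sign under TMM, while in GLY_PUE its log2 fold change was -0.48 (adjusted p = 0.238). PROS1, a ligand of the related receptors, fell in GLY_PUE (log2 -2.66) and GLY (log2 -2.39) at levels under 2 CPM in all libraries, and its call in GLY was lost under TMM (log2 -1.25, adjusted p = 0.0911). The call of MERTK in GLY was lost on leaving out any 1 of 4 libraries or all libraries numbered 3. WISP3, the other CCN family gene in the table beside CYR61, fell in GLY_PUE (log2 -1.17) and GLY (log2 -0.81). In GLY its call was lost on leaving out any 1 of 8 libraries or all libraries numbered 3, and its sign turned under TMM, where its call in GLY_PUE was also lost (log2 -0.17).

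The genes around tissue factor and the cell-surface protease system included 7 in the table, of 14 on the list. With F3 among them, 5 rose and 2 fell in GLY_PUE (20.2% and 57.1% of all genes tested). In GLY 4 rose and 2 fell (19.7% and 64.6% of all genes tested). PLAU (urokinase) and its receptor PLAUR rose in both comparisons, with log2 fold changes of 2.48 and 1.55 in GLY_PUE and 2.67 and 1.72 in GLY. F2RL1, a protease-activated receptor that tissue factor complexes can cleave, rose in GLY_PUE (log2 1.18, adjusted p = 0.0183), a call lost without GLY_PUE replicate 2, untreated replicate 3 or all libraries numbered 3, and in GLY it was called higher under TMM (log2 1.76, adjusted p = 0.00297). F10, the coagulation factor that tissue factor activates, and F2RL3, another protease-activated receptor, fell in GLY_PUE (log2 -1.60 and -1.73) and GLY (log2 -1.95 and -1.82). The call of F10 was lost on leaving out any 1 of 7 libraries in GLY_PUE and any 1 of 3 in GLY, and in GLY also without all libraries numbered 3. Under TMM neither F10 nor F2RL3 was called in either comparison (log2 -0.55 to -0.70).

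Of 4 AP-1 subunits in the table, of 8 on the list, 3 rose and 0 fell in both comparisons. Over all genes tested, 20.2% rose and 57.1% fell in GLY_PUE, and 19.7% rose and 64.6% fell in GLY. JUN, ATF3 and FOSL1 rose, with log2 fold changes of 1.57, 1.95 and 1.72 in GLY_PUE and 1.5, 1.96 and 1.91 in GLY. FOSB was 1.2 in GLY_PUE (adjusted p = 0.0673) and 1.14 in GLY (adjusted p = 0.0763). With the replicate block, FOSB was called higher in GLY_PUE (log2 1.40, adjusted p = 0.00105). FOSB was also called higher without the libraries numbered 3 (log2 1.02 in GLY_PUE and 0.99 in GLY) and under TMM (2.16 and 2.27). It stayed uncalled in 15 of 23 alternatives in GLY_PUE and in 18 of 23 in GLY.

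**Figure D4:**
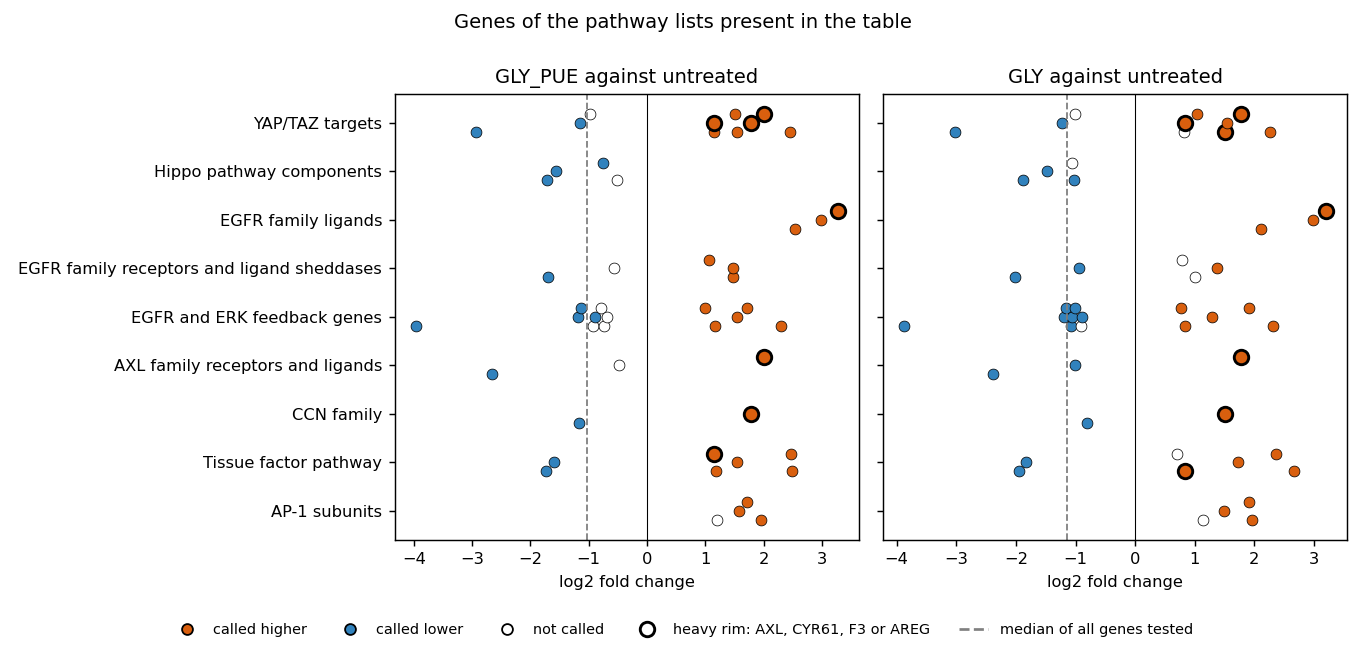
Log2 fold changes of the 47 pathway list genes in the table, by list, in GLY_PUE and GLY relative to untreated, with filled points for called genes, a heavy rim for AXL, CYR61, F3 and AREG and a dashed line at the median of all genes tested. The 3 EGFR ligands lie between 2.10 and 3.28, whereas 3 of 4 Hippo pathway components were called lower in each comparison with library totals, where 57.1% of all genes tested were lower in GLY_PUE and 64.6% in GLY.

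The genes whose log2 CPM followed each of the 4 most closely over the 12 libraries were taken by Pearson's r among 2331 genes. The libraries fall into those with and without GLY, a split that all of these correlations share, and r is given as a description. For AREG they were ATF3 (r = 0.996), AEN (0.995) and ITPRIP (0.992). For CYR61 they were AHNAK2 (0.995), NOCT (0.990) and DUSP14 (0.981). For AXL they were LOC101928841 (0.997), WNT9A (0.993) and USP36 (0.991), and for F3 they were RND3 (0.986), AKAP2 (0.981) and ARHGAP29 (0.976). WNT9A, a Wnt ligand, rose in GLY_PUE and GLY (log2 2.65 and 2.54), and AHNAK2 rose as well (log2 1.90 and 1.57).

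The cell type markers in the table were few. Of 8 epithelial markers it held CDX2 and VIL1, whose summed level was 4.98 to 5.69 FPKM in GLY_PUE, 4.16 to 7.29 in GLY, 25.5 to 33.2 in PUE and 24.9 to 31.9 in untreated libraries. Of 8 leukocyte markers it held CD14 and CD68, summing to 9.83 to 13.0 FPKM in GLY_PUE, 9.49 to 13.5 in GLY, 3.01 to 3.38 in PUE and 2.60 to 3.89 in untreated libraries. CD68, a lysosomal protein, rose in GLY_PUE and GLY (log2 2.03 and 2.16), while CD14 fell (log2 -2.66 and -3.01). Of 9 fibroblast markers it held PDGFRB, at 0.31 to 0.66 FPKM in GLY_PUE, 0.29 to 0.62 in GLY, 0.12 to 0.16 in PUE and 0.15 to 0.18 in untreated libraries, and of 6 endothelial markers it held 0. The part of these markers in the results above was not tested.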

How the data were processed

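RNA-seq values of 12 SW480 libraries, 3 per group, came from 1 deposited table of 3699 genes, 3647 of them mRNA. The authors deposited, per the file headers, a read count for each gene and library. As 58.2% of these values are whole and the rest carry decimals, they were treated as estimated counts made by the authors. The authors deposited expression columns without a named unit, used here as FPKM because the count divided by this value grew with transcript length. The remaining columns are, per the file headers, log2 ratios between groups by the authors, with the authors' q-values and p-values. As checked on the values, each gene reached an absolute log2 ratio of 1 at a q-value of no more than 0.001 in 1 or more of the authors' group pairs. TopHat and DESeq 1.32.0 stand without a role in the submitters' processing notes. For the counting tool, the build and the gene models the answer is "not given in the sources used here".

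Since the table is only part of each library's genes, relative library totals were estimated from the count-to-FPKM ratio over 625 genes reaching 100 counts and an FPKM of 5 in every library. They were put on an absolute scale using 39 single-transcript genes of GENCODE 29, via a Theil-Sen slope equal to 20.2 M reads for untreated replicate 1 (95% interval from 20.0 to 20.7). Counts, rounded to whole numbers, were tested with edgeR 4.0.16 under R 4.3.3: filterByExpr at a minimum of 10, which left 3429 genes, a robust quasi-likelihood fit across all 4 groups, and Benjamini-Hochberg adjustment over every gene tested, called at a threshold of 0.05. The reported SE is the absolute log2 fold change divided by the square root of the F statistic, with 95% intervals. All comparisons came from this fit. Its code was also run on simulated independent libraries with few changed genes. These are unlike the present libraries, so that run does not bear on the results. Alternatives were scaling by TMM or RLE, tests by DESeq2 1.42.0, limma-voom and limma 3.58.1 on log2(FPKM + 0.5) and on log2(FPKM + 0.1), an unfiltered fit, a stricter filter of 50 counts in 3 libraries, restricting the fit to the groups compared, a replicate-number block, and leaving out each library in turn or all libraries numbered 3.

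No pair of libraries agreed within sampling noise; the smallest chi-square per gene found was 2.10. Replicate numbers were taken from the sample titles. Deviations from the group mean correlated between same-numbered libraries at 0.363, 0.266 and 0.448 for GLY_PUE with untreated, at 0.741, 0.626 and 0.858 for PUE with untreated, at 0.365, 0.267 and 0.458 for GLY_PUE with PUE, and at 0.106, 0.455 and 0.408 for GLY_PUE with GLY. These numbers were taken to pair the libraries for the comparisons among those groups. The fit behind the reported SE, intervals and adjusted p-values did not use this pairing, so differences between library numbers stay in its spread. The library number entered only the ratios within numbers and the replicate block. For GLY with untreated they came to 0.0876, 0.0949 and 0.331, so there the pairing is less clear. On the third principal component GLY replicate 3 lay at -12.4, near untreated replicate 3 at -14.4. GLY replicates 1 and 2 lay at -6.62 and 7.99, against 9.68 and 8.76 for untreated replicates 1 and 2.

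AXL, CYR61, F3 and AREG are named throughout, as are genes of each pathway list present in the table (1 of them is counted but not reported here), and for each of the 4 the 3 genes most like it by Pearson correlation of log2 CPM, among genes reaching an average log2 CPM of 1. These genes and lists were settled with earlier results from these data already known. Promoter sequences come from RefSeq (GRCh38.p14). BER and WOG, also named in the protocol, were not analysed here.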

Additional observations from a re-analysis of the deposited data

How the results depend on the processing

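For AXL, CYR61, F3 and AREG, GLY_PUE against untreated and against PUE kept direction and call in 23 of 23 alternatives, as did AXL and AREG in GLY against untreated. CYR61 in GLY was called in 21 of 23, and leaving out 1 library gave log2 1.136 to 1.762. F3 in GLY was called in 14 of 23. Leaving out 1 library gave 0.5045 to 1.142. F3 in GLY was also not called by limma-voom (0.7383), without the libraries numbered 3 (0.7903), with limma on log2(FPKM + 0.5) (0.6533) or log2(FPKM + 0.1) (0.7062), or with only the libraries of the groups compared (0.8428). The cause was not tested.

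With the replicate block no call of these 4 genes changed. In GLY against untreated it gave log2 1.90, 1.59, 0.80 and 3.37 for AXL, CYR61, F3 and AREG, in GLY_PUE against untreated 2.11, 1.87, 1.16 and 3.40, with 3086 and 2926 called genes in GLY and GLY_PUE. In GLY, where the pairing with untreated is less clear, the block also called FOSB and MYOF higher and LRIG3, TEAD1 and TGFB2 lower. In PUE against untreated 11 values of the 4 genes changed sign across alternatives, in GLY_PUE against GLY 3 and in the interaction 6, all without a call.

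TMM and RLE gave 1158 and 1188 called genes in GLY, 1211 and 1234 in GLY_PUE and 1232 and 1250 in GLY_PUE against PUE, where library totals gave 2890, 2651 and 2669. Pathway list genes called lower numbered 3 and 3 in GLY and 3 and 3 in GLY_PUE under TMM and RLE, 12 in GLY without the libraries numbered 3, 12 with only the groups compared, and 9 in GLY_PUE with the filter of 50 counts. In GLY_PUE against GLY and in the interaction leaving out 1 library gave 0 to 1 called genes, the 1 being LIMS3 in both, without GLY_PUE replicate 2, named after its value was seen. Among pathway list genes called with library totals, signs turned under TMM and RLE in GLY for YAP1 (0.05024 and 0.00773), ADAM10 (0.1117 and 0.07395), SPRY1 (0.1466 and 0.09095), ETV4 (0.3321 and 0.2539), MERTK (0.07971 and 0.03171) and WISP3 (0.3123 and 0.2578), for SPRY2 under TMM (0.03176), and in GLY_PUE for YAP1 (0.2485 and 0.2197) and DUSP6 (0.1072 and 0.08074). Both scalings are computed from the selected table itself.

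The 95% intervals come from 3 libraries per group and from the fit without the library number as a block. For the 4 genes they span from -1.28 to 1.38 on the log2 scale in PUE against untreated and GLY_PUE against GLY. In the interaction they span from -1.36 to 1.90.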

Other observations

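The deposited counts of CYR61 and AREG were whole numbers in 12 of 12 libraries, while those of AXL and F3 were whole in 0 of 12.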
